A study of Mus musculus with 15 samples.

Results

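Submandibular glands collected 30 days after irradiation (IR_30d, 3 libraries) were compared with nontreated glands (NT, 3 libraries) across all genes, with the level in every library. These 6 of the 15 bulk RNA libraries of the series were chosen by their labels alone. Wildtype male C57BL/6 mice, 8 to 10 weeks old, had received 15 Gy at the gland region in the IR_30d group, and the NT group had no treatment. The glands of a further group were taken 4 days after the same dose (IR_4d, 3 libraries) and are used below where day 30 differed from day 4. The labels give neither the day on which NT glands were taken, so that age at collection cannot be told apart from irradiation, nor whether each library came from its own mouse. The other 6 libraries of the series came from irradiated glands with a vesicle treatment (labelled IR + iEVs), taken at day 4 or day 30. They entered only the shared estimate of spread. Each p-value thus reflects spread pooled over all 15 libraries, and part of that spread may be technical.

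The submandibular gland makes saliva in acini, which secrete fluid and protein, and modifies it in ducts. In male mice part of the duct system is the granular convoluted tubule, which stores kallikreins and growth factors and is maintained by androgen. Ionizing radiation breaks DNA, and the transcription factor p53 then induces genes of cell cycle arrest, repair and apoptosis. Interferons, which signal through JAK kinases and STAT and IRF factors, induce antiviral effectors and antigen presentation. Irradiated salivary glands are known for a lasting loss of saliva, and a dry mouth after radiotherapy is the disorder named in the title of the series.

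Total counts were 34480650, 37084395 and 41367972 in IR_30d and 36898805, 29731963 and 52201098 in NT. Levels are given as CPM, which are counts scaled to the effective library size, and changes are log2 ratios of IR_30d over NT ± SE from edgeR, whose Benjamini-Hochberg adjusted p had to be under 0.05 for a gene to be called. Correlations of log2 CPM between libraries were 0.979 to 0.982 within IR_30d, 0.965 to 0.977 within NT and 0.962 to 0.978 between the groups. NT replicate 1 stood apart in secretory products of the sublingual gland, a neighbouring salivary gland: Dcpp3 had 0.634, 10.9 and 0.727 CPM in IR_30d, against 384, 0.22 and 0.111 CPM in NT. IR_30d replicate 2 had most of Bpifa2, a secretory protein of the parotid gland, with 8.64, 296 and 14.7 CPM in IR_30d, against 70.4, 0.252 and 1.15 CPM in NT. Hemoglobin followed neither group, with 4.41, 43.4 and 72.5 CPM of Hbb-bs in IR_30d, against 79.5, 13 and 1.87 CPM in NT. No member of the lists of sublingual (7 tested), parotid (8), adipose (15), skeletal muscle (7), lymph node (4) and red blood cell (7) markers was called in edgeR; at an unadjusted p under 0.05 these lists had 1, 1, 0, 2, 1 and 0 members, DESeq2 called 2 sublingual and 1 parotid marker, and limma-voom called none. Egf and Klk1b22, products of the submandibular tubules, and the acinar channel Aqp5 were abundant in all 6 libraries, as given below.

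Of 16042 genes tested, 718 (4.48%) were called, 511 (3.19%) higher and 207 (1.29%) lower in IR_30d. Of these, 175 rose and 58 fell by more than 2-fold, and 716 had groups that did not overlap. Among all 16042 genes tested the groups did not overlap in 2018 (12.6%) with IR_30d higher and in 1710 (10.7%) with IR_30d lower. Groups without overlap were thus common also among genes not called. Of the 718 genes, 171 were in at least 1 of 46 gene lists and 547 in none. The shares over all genes, 3.19% higher and 1.29% lower, are the ones to set beside each list count below. Among the lists, called rises were most frequent in products of the granular tubules, targets of p53, macrophage and complement genes and genes of antigen presentation, and called falls in collagens and other matrix genes. Over all genes tested the median log2 ratio was -0.0038. Without IR_30d replicate 1, 2 or 3 the calls numbered 500, 355 and 361, and without NT replicate 1, 2 or 3 they numbered 453, 528 and 606. Leaving out NT replicate 1 and 5 libraries of other groups, the ones rich in sublingual transcripts, gave 491 calls. Where a named gene lost its call under another alternative (a different tool, scaling or filter, a fit of the 2 groups alone, or replicate numbers as a block) this stands beside its value, and the adjusted p is the largest over all alternatives.

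**Figure D1:**
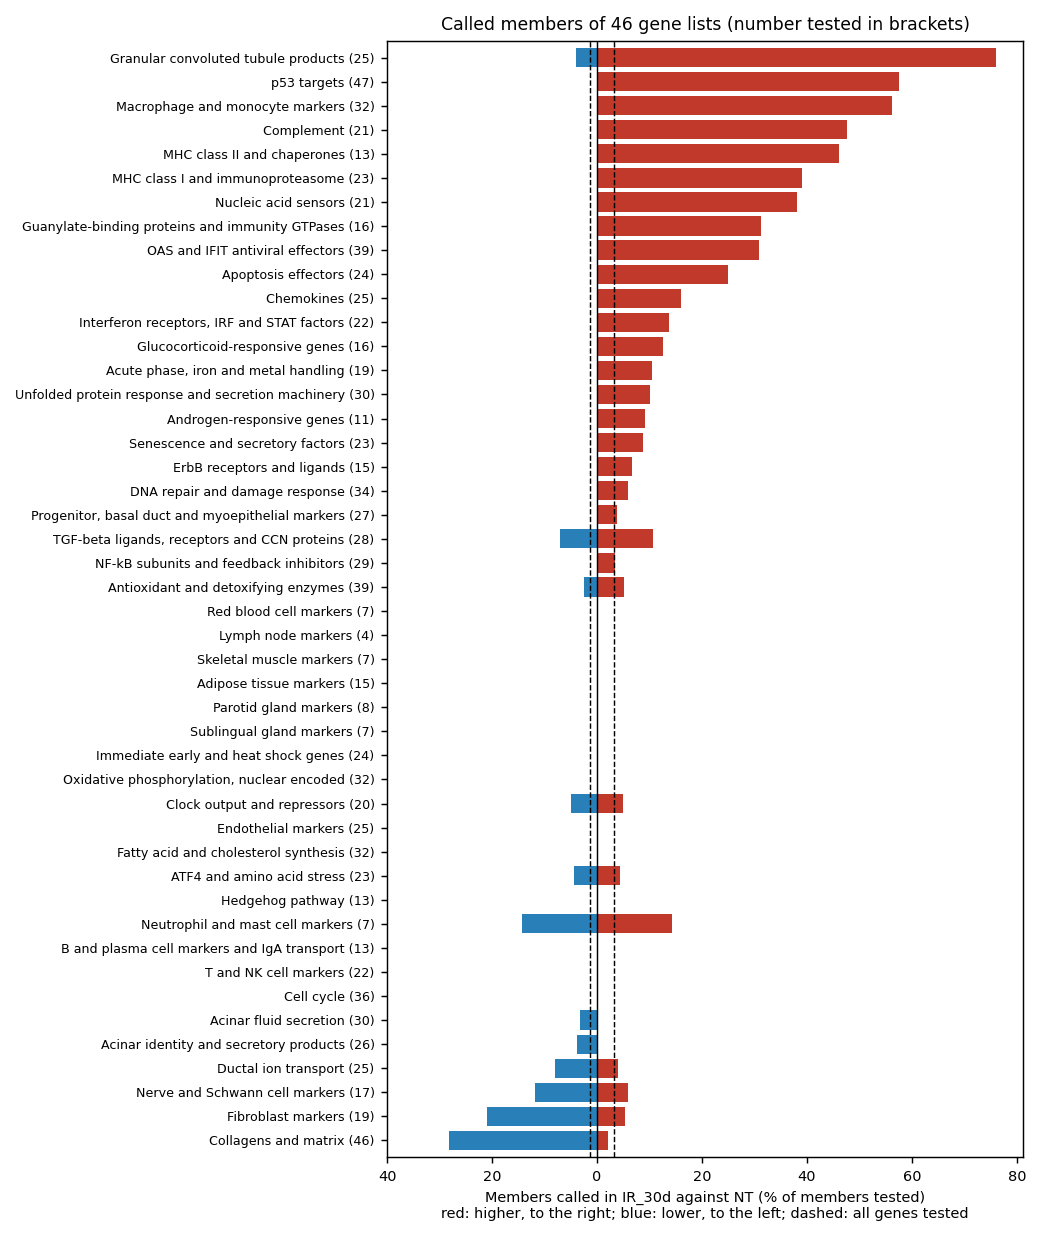
Percentage of the tested members of each of 46 gene lists called higher (red, to the right) or lower (blue, to the left) in IR_30d against NT, with the number tested in brackets and the percentage over all genes tested as dashed lines (3.19% higher, 1.29% lower). Tubule products and p53 targets extend farthest to the right, and collagens and matrix genes farthest to the left.

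More than 1 in 2 tested targets of p53 were higher in glands taken 30 days after irradiation. Of 47 targets, 27 rose, none fell and 20 did not pass, with a median log2 ratio of 0.96 against -0.0038 over all genes. The rise took in arrest, apoptosis, death receptor and repair genes, and was 0.37 in its smallest and 4.96 in its largest called member.

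Cdkn1a encodes p21, the inhibitor of cyclin-dependent kinases through which p53 arrests the cell cycle. It had 24.9, 45.8 and 31 CPM in IR_30d, against 2.92, 1.76 and 3.03 CPM in NT, a log2 ratio of 3.70 ± 0.25 (edgeR adjusted p = 1.7e-06). Gdf15, a secreted stress cytokine, had 35.1, 52 and 38.2 CPM in IR_30d, against 1.8, 1.04 and 1.2 CPM in NT (4.96 ± 0.41, edgeR adjusted p = 4.44e-05). For both genes every irradiated library lay many times above every nontreated one, with IR_30d replicate 2 the highest. Eda2r, which binds ectodysplasin A2, had 20.8, 19.2 and 22.9 CPM in IR_30d, against 5.56, 4.4 and 6.12 CPM in NT. Ephx1, an epoxide hydrolase, had the lowest p of all genes, with 179, 188 and 192 CPM in IR_30d, against 51.4, 58.8 and 55.4 CPM in NT (1.76 ± 0.10, edgeR adjusted p = 4.44e-08). Its groups were tight and far apart. The mitochondrial enzyme Dglucy, which converts D-glutamate, rose by 1.52 ± 0.10 and Eda2r by 1.96 ± 0.15 on the log2 scale. Psrc1, a microtubule-binding protein, stood at only 3.2, 3.67 and 3.01 CPM in IR_30d, against 0.344, 0.346 and 0.111 CPM in NT (3.69 ± 0.31).

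The 6 apoptosis effectors called, of 24 tested, were all higher in IR_30d. Bax, which opens the mitochondrial outer membrane, had 17.2, 14.6 and 18 CPM in IR_30d, against 7.74, 9.15 and 8.76 CPM in NT (0.96 ± 0.11). Bbc3, the BH3-only protein PUMA, had 8.19, 10.1 and 8.49 CPM in IR_30d, against 3.72, 4.94 and 4.77 CPM in NT (0.99 ± 0.15). The groups of both genes were well separated. Tnfrsf10b, the TRAIL receptor, rose by 1.59 ± 0.24, Apaf1, the scaffold of the apoptosome, by 0.79 ± 0.15, and the death receptor Fas by 0.96 ± 0.26 on the log2 scale. Bcl2l1, which encodes the survival protein Bcl-xL, also rose (0.39 ± 0.08), a call lost with the sublingual-rich libraries left out (adjusted p 0.117). The call of Fas was lost without IR_30d replicate 1, 2 or 3 or NT replicate 1 or 3, or with no low-count filter, with the 2 groups alone, with the replicate block or with the sublingual-rich libraries left out (adjusted p up to 0.274).

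Among 34 DNA repair and damage response genes 2 rose, both also on the p53 list: Mgmt, which removes methyl groups from guanine (1.90 ± 0.21), and Polk, a translesion polymerase (0.73 ± 0.15). The other 32 did not pass, and the list's median log2 ratio was 0.05. Over all genes tested 3.19% were called higher, so these 2 calls say little about the list. None of 36 cell cycle genes passed in edgeR, although 33 had a ratio above 0 and the median was 0.49. Ube2c, an E2 enzyme used by the anaphase-promoting complex, had 2.02, 3.15 and 1.61 CPM in IR_30d, against 1.26, 0.975 and 0.536 CPM in NT (log2 ratio 1.31 ± 0.44, edgeR adjusted p = 0.111). At an unadjusted p under 0.05 there were 5, DESeq2 called 1 of the 36 and limma-voom none. Of 23 senescence and secretory factors the 2 called were Cdkn1a and Gdf15.

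Also among the genes with the lowest p were Sat1, which acetylates polyamines, Dyrk3, a protein kinase, Aen, an exonuclease induced by p53, Zmat3, an RNA-binding zinc finger protein, and Exoc4, a subunit of the exocyst. Sat1 had 55.5, 59.6 and 61.3 CPM in IR_30d, against 26.5, 27.9 and 25.7 CPM in NT (1.14 ± 0.08). Exoc4 had 62.9, 70.2 and 63.5 CPM in IR_30d, against 31.1, 29.5 and 32.3 CPM in NT (1.08 ± 0.08). Neither gene had overlapping groups. Log2 ratios were 1.85 ± 0.14 for Dyrk3, 1.25 ± 0.09 for Aen and 1.44 ± 0.11 for Zmat3, and Sesn2, a target of both p53 and ATF4, rose by 0.99 ± 0.12.

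Part of the p53 response was lower at day 30 than at day 4. Comparing IR_30d with IR_4d, 1092 of the 16042 genes (6.81%) were called, of which 772 (4.81%) were higher and 320 (1.99%) lower at day 30, and of the 47 p53 targets 2 were higher and 13 lower. Aen had 23.3, 26.4 and 26.5 CPM in IR_30d, against 45.4, 51.7 and 46.1 CPM in IR_4d and 9.65, 11.5 and 10.9 CPM in NT. Exoc4, which is not on the p53 list, had 62.9, 70.2 and 63.5 CPM in IR_30d, against 104, 104 and 105 CPM in IR_4d. Both were intermediate at day 30, with log2 ratios of IR_30d over IR_4d of -0.91 ± 0.09 (edgeR adjusted p = 1.26e-05) and -0.67 ± 0.08 (adjusted p = 4.09e-05). For Cdkn1a the ratio was -0.73 ± 0.21 (adjusted p = 0.0586) and for Gdf15 0.32 ± 0.32 (adjusted p = 0.657), so a difference between the days was not called for either.

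**Figure D2:**
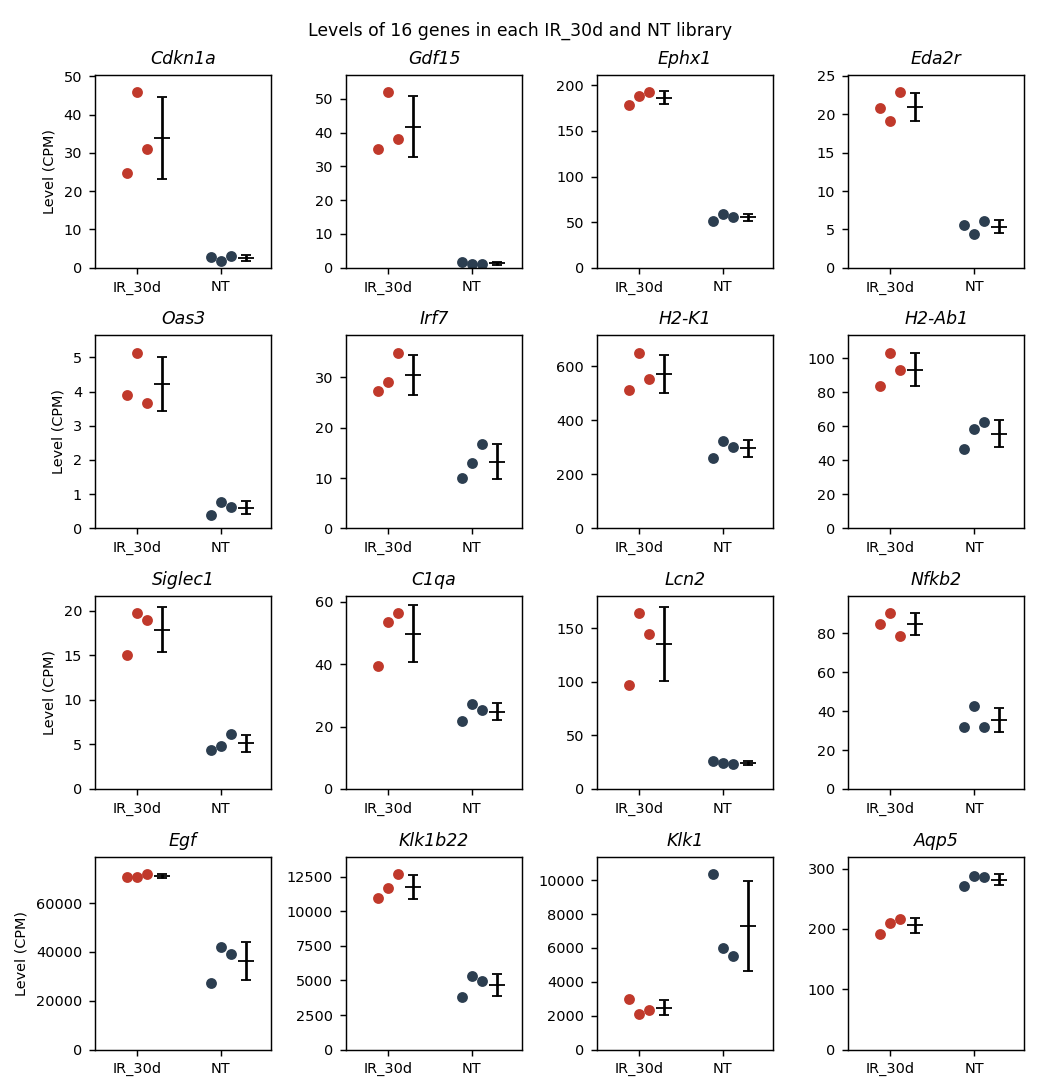
Levels in CPM of 16 genes in each IR_30d (red) and NT (dark) library, with mean ± SD (n = 3) as a black mark beside each group and the axes starting at 0. The groups do not overlap in any of these genes, and Klk1 and Aqp5 are the 2 that were lower in IR_30d.

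Several families of interferon-induced genes had members that rose in IR_30d. Among 39 antiviral effectors of the OAS and IFIT kind 12 rose and none fell, with a median log2 ratio of 0.75 and 38 of the 39 ratios above 0. Of 21 sensors of nucleic acids 8 rose, of 16 guanylate-binding proteins and immunity GTPases 5 rose, and of 22 interferon receptors, IRF and STAT factors 3 rose, with none lower in any of these lists.

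The promoters of these genes often hold the interferon-stimulated response element, searched as GAAANNGAAA on both strands in the 250 bases before the start. It was in 405 of 12155 tested genes with a promoter sequence (3.33%), in 29 of 395 genes called higher (7.34%) and in 4 of 153 called lower (2.61%). By list it was in 11 of 28 OAS and IFIT genes (39.3%), 6 of 15 sensors (40%) and 9 of 9 guanylate-binding proteins and GTPases (100%). It was in 3 of 19 MHC class I and immunoproteasome genes (15.8%) and 1 of 36 p53 targets (2.78%). The genes printed below were picked from those that hold it. A match is only a match of letters. The sequences, from RefSeq and the build GRCm38.p6, are shown for called genes of 4 functions with the element in capitals, 5′ to 3′ on the gene's strand; where the element lies on the other strand it reads TTTCNNTTTC. The 2 elements of Bst2 overlap, as do the 2 of Gbp3.
Oas3, chr5:120777695-120777764, minus strand: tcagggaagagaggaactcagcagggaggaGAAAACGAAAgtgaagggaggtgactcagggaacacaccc
Ifit3, chr19:34583343-34583446, plus strand: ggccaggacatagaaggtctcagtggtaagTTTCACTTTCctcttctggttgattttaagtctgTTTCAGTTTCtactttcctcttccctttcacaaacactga
Bst2, chr8:71537557-71537632, minus strand: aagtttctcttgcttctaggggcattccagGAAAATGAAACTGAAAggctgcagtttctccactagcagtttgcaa
Gbp2, chr3:142620574-142620643, plus strand: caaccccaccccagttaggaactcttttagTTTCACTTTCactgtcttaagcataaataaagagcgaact
Gbp3, chr3:142559969-142560043, plus strand: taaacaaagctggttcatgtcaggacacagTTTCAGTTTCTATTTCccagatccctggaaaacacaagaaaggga
B2m, chr2:122147518-122147587, plus strand: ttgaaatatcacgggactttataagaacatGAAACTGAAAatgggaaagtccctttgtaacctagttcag

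Oas3 and Oas2 make the oligoadenylates that activate RNase L against viral RNA. Oas3, with 1 element above, had 3.9, 5.13 and 3.66 CPM in IR_30d, against 0.401, 0.786 and 0.629 CPM in NT (2.80 ± 0.34, edgeR adjusted p = 9.07e-05). Oas2 had 6.07, 10.6 and 8.39 CPM in IR_30d, against 2.38, 1.76 and 1.96 CPM in NT (2.04 ± 0.26). No irradiated library came near the nontreated range in either gene. Ifit3, which helps to recognise foreign RNA, had 13, 12.2 and 15.6 CPM in IR_30d, against 3.44, 5.82 and 5.18 CPM in NT (1.50 ± 0.20). Bst2, or tetherin, which holds budding virus on the cell, had 13.2, 18.8 and 19.7 CPM in IR_30d, against 8.62, 7.92 and 8.76 CPM in NT (1.03 ± 0.14). 51.2% of the 50-base stretches of the Ifit3 transcript also occur in other genes, so that its reads are uncertain between paralogs, whereas none of those of Oas2 do.

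Irf7, the factor that amplifies type I interferon, had 27.4, 29.2 and 34.9 CPM in IR_30d, against 9.94, 12.9 and 16.9 CPM in NT (1.20 ± 0.19, edgeR adjusted p = 0.00139). The kinase Jak1 rose by 0.32 ± 0.08 on the log2 scale, a small change, and its call was lost without IR_30d replicate 1, 2 or 3 or NT replicate 1 or 2, or with the sublingual-rich libraries left out (adjusted p up to 0.14). Zbp1, a sensor of Z-form nucleic acid, had 3.59, 3.9 and 4.13 CPM in IR_30d, against 0.774, 0.377 and 1.35 CPM in NT (2.17 ± 0.35). The guanylate-binding proteins Gbp3 and Gbp2, which attack pathogen-containing vacuoles, rose by 1.35 ± 0.20 and 1.23 ± 0.20; Gbp2 had 9.73, 16.6 and 10.7 CPM in IR_30d, against 4.53, 5.16 and 6.05 CPM in NT. All of these were higher in each IR_30d library than in each NT library.

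Some of these counts moved with single libraries. Called antiviral effectors numbered 19 without NT replicate 3 and 8 to 11 without each of the other libraries, and 6 among genes of at least 5 CPM, and DESeq2 called 20. Called sensors numbered 5, 2 and 1 without IR_30d replicates 1, 2 and 3 and 2, 4 and 6 without NT replicates 1, 2 and 3. Called GTPases numbered 2 without IR_30d replicate 2 or 3 or NT replicate 1 or 2, and 3 among genes of at least 5 CPM. Called receptors and factors numbered 1 without IR_30d replicate 2 or NT replicate 1 or 2, 2 without IR_30d replicate 1 or 3, and 5 with DESeq2. With the sublingual-rich libraries left out 2 sensors, 2 GTPases and 1 receptor or factor were called.

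Genes of antigen presentation on both classes of MHC rose too. In the class I and immunoproteasome list 9 of 23 genes rose and none fell (median 0.62), and in the class II list 6 of 13 rose and none fell (median 0.66). The class I heavy chain H2-K1 had 511, 650.0 and 553 CPM in IR_30d, against 260.2, 325 and 303 CPM in NT (0.95 ± 0.10, edgeR adjusted p = 3.71e-05). Its light chain B2m, whose promoter is printed above, had 266, 326 and 289.6 CPM in IR_30d, against 123, 165 and 173 CPM in NT (0.94 ± 0.12). H2-D1, another heavy chain, rose by 0.72 ± 0.10 and the peptide transporter Tap1 by 0.91 ± 0.11. The class II chain H2-Ab1 had 83.7, 103 and 92.8 CPM in IR_30d, against 46.5, 58.3 and 62.2 CPM in NT (0.74 ± 0.11). H2-Eb1, another class II chain, and Cd74, the invariant chain, rose by 0.64 ± 0.10 and 0.69 ± 0.11, and Ctss, the protease that cleaves that chain, by 1.10 ± 0.13.

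Macrophage markers rose in the same glands. Of 32 macrophage and monocyte markers 18 rose and none fell (median 0.89), and of 21 complement genes 10 rose and none fell (median 0.81). The summed level of the macrophage list was 520.3, 611 and 591 CPM in IR_30d, against 314, 359 and 381 CPM in NT, so the groups did not overlap. In whole glands more cells of a type and more RNA per cell cannot be told apart, and the part of macrophages in the rises of interferon and MHC genes was not tested. Called macrophage markers numbered 11 without IR_30d replicate 2 and 11 without IR_30d replicate 3. Without NT replicate 1, 13 were called higher and 1 lower. With the sublingual-rich libraries left out 12 were called higher and 1 lower.

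Siglec1, a sialic acid receptor of macrophages that is also induced by interferon, had 15, 19.7 and 19 CPM in IR_30d, against 4.38, 4.78 and 6.18 CPM in NT (1.80 ± 0.18, edgeR adjusted p = 8.17e-06). Mpeg1, a pore-forming protein of phagocytes, had 43.3, 59 and 53.5 CPM in IR_30d, against 25.8, 29 and 30.4 CPM in NT (0.87 ± 0.12). Cd14, a co-receptor for endotoxin, rose by 0.86 ± 0.14, and Ms4a4a, a membrane protein of macrophages, by 2.10 ± 0.38. C1qa, C1qb and C1qc, the chains that start the classical complement pathway, rose together by 1.01 ± 0.13, 0.97 ± 0.12 and 0.93 ± 0.13. C1qa had 39.4, 53.6 and 56.2 CPM in IR_30d, against 21.7, 27.2 and 25.4 CPM in NT. Cfb, the protease of the alternative pathway, had 9.76, 14.4 and 13.9 CPM in IR_30d, against 4.33, 4.24 and 4.16 CPM in NT (1.58 ± 0.16), and its nontreated libraries were nearly equal.

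Of 25 chemokines 4 rose and none fell. Ccl8, a ligand that attracts monocytes, was low, with 0.785, 2.27 and 3.82 CPM in IR_30d, against 0.0859, 0.157 and 0.351 CPM in NT (3.42 ± 0.61), and its call was lost with limma-voom and with the sublingual-rich libraries left out (largest adjusted p 0.0795). Ccl9 rose by 1.43 ± 0.22 and Cxcl16, the ligand of CXCR6, by 0.61 ± 0.11. Ccl6 rose by 1.04 ± 0.28 with edgeR adjusted p = 0.0483, a call lost without IR_30d replicate 2 or 3 or NT replicate 1, 2 or 3, or with limma-voom, with no low-count filter, with the replicate block or with the sublingual-rich libraries left out (adjusted p up to 0.39). Only 2 of the 25 were called with limma-voom, among genes of at least 5 CPM, or with the sublingual-rich libraries left out.

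Lymphocyte markers gave no call. In edgeR none of 22 T and NK cell markers (median 0.23) and none of 13 B and plasma cell genes (median 0.09) was called. At an unadjusted p under 0.05 there were 2 and 3, DESeq2 called 0 and 1, and limma-voom called none. Cd3d had 0, 0 and 1 reads in IR_30d, against 1, 0 and 0 reads in NT, and Cd3e had 0, 9 and 6 reads in IR_30d, against 4, 3 and 4 reads in NT, all at the limit of detection. Of 7 neutrophil and mast cell genes Csf3r, the G-CSF receptor, rose (1.87 ± 0.43) and Mmp9, a gelatinase, fell (-2.24 ± 0.50). Mmp9 had 1.03, 0.574 and 0.389 CPM in IR_30d, against 1.17, 3.49 and 4.64 CPM in NT, and replicate 1 of each group lay close together. The call of Csf3r was lost without IR_30d replicate 2 or 3 or NT replicate 1, or with the sublingual-rich libraries left out (adjusted p up to 0.0916), and that of Mmp9 without IR_30d replicate 2 or 3 or NT replicate 2 or 3, or with limma-voom (adjusted p up to 0.0973).

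The interferon and MHC genes differed between the days in the other direction from p53. Of the 39 antiviral effectors 32 were higher in IR_30d than in IR_4d and none lower (median log2 ratio 1.36). Higher in IR_30d were also 17 of 21 sensors, 11 of 16 GTPases, 15 of 23 class I genes, 10 of 13 class II genes (median 1.55) and 22 of 32 macrophage markers. Irf7 had 27.4, 29.2 and 34.9 CPM in IR_30d, against 6.92, 6.49 and 5.49 CPM in IR_4d and 9.94, 12.9 and 16.9 CPM in NT. H2-Ab1 had 83.7, 103 and 92.8 CPM in IR_30d, against 31.5, 31.9 and 29.4 CPM in IR_4d and 46.5, 58.3 and 62.2 CPM in NT. In both, IR_4d was the lowest of the 3 groups and IR_30d the highest. The log2 ratio of IR_30d over IR_4d was 2.27 ± 0.20 for Irf7 (edgeR adjusted p = 8.03e-06) and 1.59 ± 0.11 for H2-Ab1 (adjusted p = 3.22e-07). Retnla, a product of alternatively activated macrophages, had 5.77, 6.91 and 8 CPM in IR_30d, against 0.384, 0.272 and 0.664 CPM in IR_4d, a log2 ratio of 3.98 ± 0.33, and 2.84, 2.14 and 3.59 CPM in NT. Its call over NT was lost without IR_30d replicate 3 or NT replicate 2 (adjusted p up to 0.065). Retnla was named for its large rise over IR_4d. IR_4d replicates 1 and 2 were high in sublingual products. Leaving out the sublingual-rich libraries left only replicate 3 in IR_4d. That setting therefore cannot show how far the calls between the days depend on sublingual tissue.

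**Figure D3:**
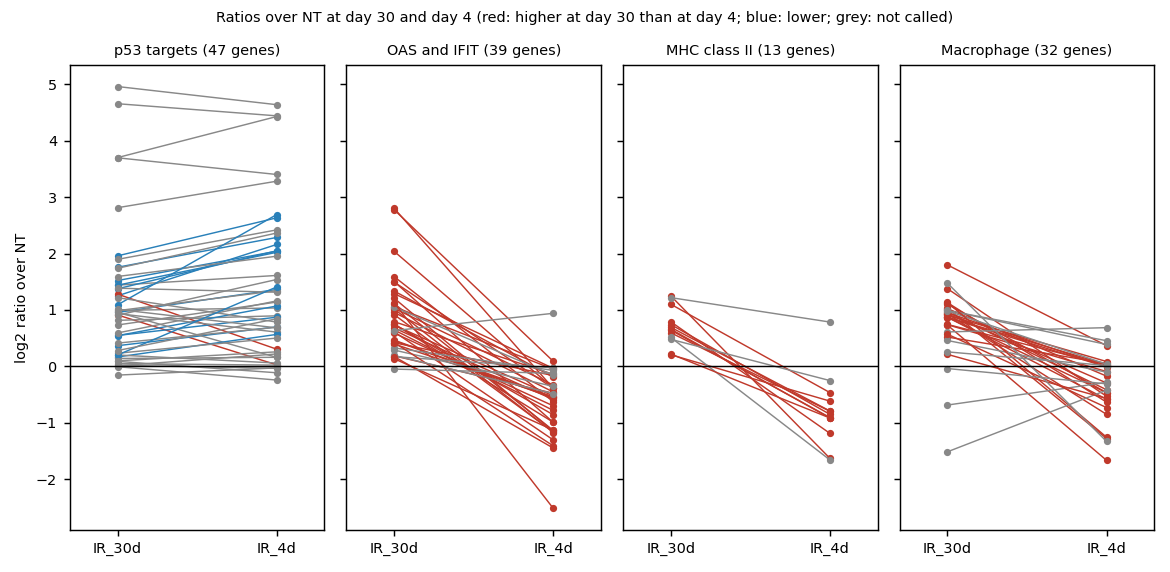
Log2 ratios over NT of each tested member of 4 lists in IR_30d (left of each panel) and IR_4d (right), joined by a line that is red where IR_30d was called higher than IR_4d, blue where it was called lower and grey where it was not called. Both ratios share the NT libraries; the p53 panel has 13 blue lines and the OAS and IFIT panel 32 red ones.

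Lcn2 was one of the 12 largest rises that met the rule for named genes. This secreted protein that binds bacterial siderophores had 96.5, 164 and 145 CPM in IR_30d, against 26.5, 23.8 and 23.3 CPM in NT (2.46 ± 0.31, edgeR adjusted p = 0.000947). Its nontreated libraries were close together, and the lowest irradiated one lay well above them. In IR_4d Lcn2 had 22, 15.8 and 29.4 CPM, and it was called higher in IR_30d than in IR_4d (2.59 ± 0.31). Of 19 acute phase, iron and metal genes 1 other rose, the zinc transporter Slc39a14 (0.46 ± 0.08).

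Nfkb2, which encodes the p100 precursor of the alternative NF-kB pathway, was the 1 called of 29 NF-kB subunits and feedback inhibitors. That is near the 3.19% called higher over all genes. It had 84.9, 90.2 and 78.9 CPM in IR_30d, against 40.1, 38 and 38.8 CPM in IR_4d and 31.8, 42.5 and 32 CPM in NT (1.26 ± 0.10 over NT, edgeR adjusted p = 1.02e-06). Its RefSeq promoter holds the letters GGGANTTCCC, a kappa B motif found in 65 of 12155 tested genes with a promoter (0.535%), shown here in capitals.
Nfkb2, chr19:46304668-46304736, plus strand: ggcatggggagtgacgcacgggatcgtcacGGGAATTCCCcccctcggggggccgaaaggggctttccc

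Of 16 glucocorticoid-responsive genes 2 rose. Hsd11b1, which regenerates active glucocorticoid, had 117, 125 and 102 CPM in IR_30d, against 57, 50.4 and 65.4 CPM in IR_4d and 42.3, 30.9 and 29.5 CPM in NT (1.74 ± 0.15 over NT). Ddit4, an inhibitor of mTOR, rose by 0.67 ± 0.16, a call lost without IR_30d replicate 2 or NT replicate 1 or 2, or with the 2 groups alone or with the sublingual-rich libraries left out (adjusted p up to 0.222). Hsd11b1 was thus highest in IR_30d and intermediate in IR_4d.

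Products of the granular convoluted tubules were the list with the largest called share. Of 25 products tested 19 rose, Klk1 fell and 5 did not pass, with a median log2 ratio of 1.27. Together they took 24.1%, 25.8% and 25.7% of all counts in IR_30d, against 9.83%, 15.6% and 13.9% in NT, and 13.2%, 11.2% and 13.1% in IR_4d. The 3 irradiated libraries were nearly alike and lay above the nontreated range, in which replicate 1 was the lowest. Against IR_4d 20 of the products were higher and 1 lower in IR_30d. With these 25 genes left out, 701 genes were called between IR_30d and NT.

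Egf, epidermal growth factor, had 70768, 70836 and 71940 CPM in IR_30d, against 27302, 42009 and 39343 CPM in NT (0.97 ± 0.21, edgeR adjusted p = 0.0154), and its call was lost without IR_30d replicate 2 or 3 or NT replicate 1 (adjusted p up to 0.0833). The 3 irradiated libraries were nearly equal and lay above all nontreated ones. Klk1b22 and Klk1b26, tissue kallikreins, had 10932, 11674 and 12690 CPM and 44735, 49822 and 50520 CPM in IR_30d, against 3809, 5309 and 4975 CPM and 18110, 27056 and 24534 CPM in NT (1.32 ± 0.17 and 1.06 ± 0.17). Klk1b9, Klk1b16, Klk1b21, Klk1b11 and Klk1b8 rose by 1.38 ± 0.22, 1.48 ± 0.25, 1.37 ± 0.19, 0.83 ± 0.12 and 2.05 ± 0.34. Crisp3, a cysteine-rich secretory protein, rose by 1.11 ± 0.22 (call lost without NT replicate 1, adjusted p 0.0744), and the growth factor Fgf1 by 0.78 ± 0.12. Crisp1, a relative of Crisp3, had 955, 1511 and 1319 CPM in IR_30d, against 129.9, 189 and 242 CPM in NT (2.75 ± 0.66, edgeR adjusted p = 0.0429), but its call was lost without any 1 of the 6 libraries (adjusted p up to 0.146), with no low-count filter and with the replicate block.

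Klk1, the kallikrein that releases kinins, was lower. It had 2978, 2093 and 2348 CPM in IR_30d, against 10365, 6023 and 5539.6 CPM in NT (-1.56 ± 0.25, edgeR adjusted p = 0.0029). Even the lowest nontreated library was well above the highest irradiated one. Of the 50-base stretches of the Klk1 transcript 28.4% occur in other genes, most of them in Klk1b5, so its reads, like those of the Klk1b genes, are uncertain between paralogs, whereas Egf shares none. Scgb2b26, a secretoglobin, was lower too, with 3501, 2908 and 3221 CPM in IR_30d, against 9797, 5353 and 5713 CPM in NT (-1.12 ± 0.24), a call lost without IR_30d replicate 2 or 3 or NT replicate 1 (adjusted p up to 0.0909).

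**Figure D4:**
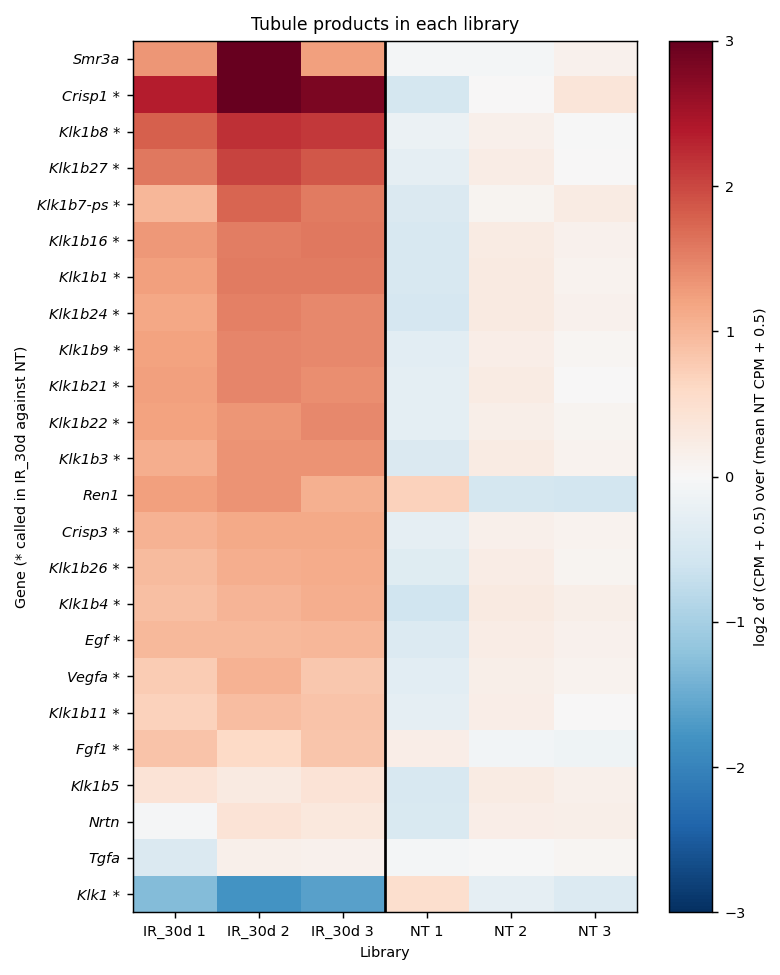
Of the 25 tested tubule products, 24 in the 3 IR_30d (left) and 3 NT libraries, as log2 of CPM plus a pseudocount of 0.5 over the same for the NT mean; an asterisk marks the 19 called of the genes drawn. Red cells fill the IR_30d side except for Klk1, which is blue in all 3, and a few pale cells of genes not called.

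Each list of acinar genes had 1 called member, which was lower. Of 30 genes of fluid secretion Aqp5 fell and 29 did not pass (median -0.08), and of 26 acinar identity genes and secretory products Creb3l1 fell and 25 did not pass (median -0.25). Over all genes tested 1.29% were called lower and 3.19% higher. Ratios above 0 were 13 of the 30 and 7 of the 26. Aqp5, the water channel of the apical acinar membrane, had 192, 210.0 and 216 CPM in IR_30d, against 271, 288 and 286 CPM in NT (-0.45 ± 0.10, edgeR adjusted p = 0.0121). The groups were close but did not overlap, and the call was lost without IR_30d replicate 1 (adjusted p up to 0.0675). Ano1, the calcium-activated chloride channel, had 131, 134 and 149 CPM in IR_30d, against 169, 151 and 198 CPM in NT (log2 ratio -0.32 ± 0.11, edgeR adjusted p = 0.131) and did not pass. Creb3l1, a factor for secretory capacity, had 167, 175 and 148 CPM in IR_30d, against 251, 212 and 219 CPM in NT (-0.48 ± 0.12), a call lost without IR_30d replicate 1, 2 or 3 or NT replicate 1 or 3 (adjusted p up to 0.161). Bhlha15, or Mist1, which keeps acinar cells mature, had 286, 366 and 353 CPM in IR_30d, against 584, 379.7 and 477 CPM in NT (log2 ratio -0.52 ± 0.16, edgeR adjusted p = 0.0826) and did not pass. NT replicate 1 was its highest library.

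In the ducts Kcnj16, a potassium channel, had 181, 186 and 176 CPM in IR_30d, against 75.3, 103 and 105 CPM in NT (0.94 ± 0.16). Cftr, the chloride channel mutated in cystic fibrosis, had 36.6, 25.5 and 32.9 CPM in IR_30d, against 64.2, 79 and 79.9 CPM in NT (-1.23 ± 0.30, edgeR adjusted p = 0.0383). Fxyd2, a regulator of the sodium pump, had 73.1, 73.7 and 83 CPM in IR_30d, against 175, 160.0 and 148 CPM in NT (-1.07 ± 0.25). The potassium channel was higher and the other two lower in every irradiated library, and they were the 3 called of 25 ductal transport genes. The calls of Cftr and Fxyd2 were lost without any 1 of the 6 libraries (adjusted p up to 0.155 and 0.112), with no low-count filter and with the replicate block, and that of Cftr also with the sublingual-rich libraries left out. Among 27 progenitor, basal duct and myoepithelial markers Krt19, a ductal keratin, rose (0.83 ± 0.20), a call lost without IR_30d replicate 2 or 3 or NT replicate 1 or 2, or with the sublingual-rich libraries left out (adjusted p up to 0.101). This 1 call of 27 is near the 3.19% called higher over all genes.

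Falls were frequent among collagens and other matrix genes. Of 46 tested 13 fell in IR_30d, Mmp2 rose and 32 did not pass (median -0.27). Col1a1, the main chain of type I collagen, had 118, 129 and 116 CPM in IR_30d, against 204, 213 and 174 CPM in NT (-0.70 ± 0.13, edgeR adjusted p = 0.0032). Col15a1, a collagen of basement membranes, had 48.8, 53.2 and 42 CPM in IR_30d, against 105, 75.7 and 68 CPM in NT (-0.79 ± 0.13). In both genes all irradiated libraries lay below all nontreated ones. The laminin chain Lamb1 fell by 0.67 ± 0.11 and the fibrillar collagen Col3a1 fell by 0.70 ± 0.18 on the log2 scale, and the call of Col3a1 was lost without IR_30d replicate 1, 2 or 3 or NT replicate 1 or 2, or with no low-count filter or with the sublingual-rich libraries left out (adjusted p up to 0.151). Mmp2, a protease that degrades collagen, had 35.2, 36.9 and 35.5 CPM in IR_30d, against 45.9, 48.9 and 52.1 CPM in IR_4d and 25.8, 21.5 and 20.3 CPM in NT (0.67 ± 0.13 over NT). Called falls numbered 7, 7 and 6 without IR_30d replicates 1, 2 and 3 and 8, 8 and 11 without NT replicates 1, 2 and 3, and 7 with the sublingual-rich libraries left out.

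Of 19 fibroblast markers 4 fell and Ly6a, also known as Sca-1, rose (0.58 ± 0.13). Pdgfra, the receptor that marks most fibroblasts, had 42.2, 38 and 40.1 CPM in IR_30d, against 57.2, 64.6 and 60.6 CPM in NT (-0.60 ± 0.12, edgeR adjusted p = 0.00552). The other falls were Pi16, a marker of adventitial fibroblasts (-0.71 ± 0.18), Cd34 (-0.52 ± 0.14) and Smoc2 (-0.44 ± 0.12). Pdgfra kept its call under all 16 alternatives, whereas the calls were lost for Pi16 without IR_30d replicate 1 or 2 or NT replicate 1, 2 or 3 (adjusted p up to 0.158), for Cd34 without IR_30d replicate 1, 2 or 3 or NT replicate 1, or with limma-voom, with the 2 groups alone, with the replicate block or with the sublingual-rich libraries left out (adjusted p up to 0.278) and for Smoc2 without IR_30d replicate 2 or 3 or NT replicate 1, 2 or 3, or with the replicate block or with the sublingual-rich libraries left out (adjusted p up to 0.197). Ly6a lost its call without IR_30d replicate 2 or 3 or NT replicate 1 (adjusted p up to 0.0835). Called falls among fibroblast markers numbered 1 or 2 without any 1 of the 6 libraries, and 2 with the replicate block or the sublingual-rich libraries left out. The summed level of the fibroblast list was 557, 523 and 564 CPM in IR_30d, against 607, 620.2 and 614 CPM in NT, and its part in the lower matrix genes was not tested. In the TGF-beta family of 28 genes 3 rose and 2 fell. None of the rises was called, and 3 members were called lower, with the sublingual-rich libraries left out, and only 1 rise was called without IR_30d replicate 2 or 3 or NT replicate 2. Ccn4, a secreted WNT target, had 1.09, 0.717 and 0.727 CPM in IR_30d, against 3.84, 2.7 and 3.14 CPM in NT (-1.94 ± 0.37). Its relative Ccn5 had 1.18, 1.52 and 1.48 CPM in IR_30d, against 0.372, 0.283 and 0.629 CPM in NT (1.66 ± 0.35), so these relatives moved in opposite directions. Ltbp4, which stores latent TGF-beta, fell by 0.47 ± 0.09, while the ligand Tgfb1 rose by 0.45 ± 0.12 and its target Tgfbi by 0.34 ± 0.08. The call of Tgfb1 was lost without IR_30d replicate 2 or 3 or NT replicate 1 or 2, or with upper quartile scaling, with the 2 groups alone or with the sublingual-rich libraries left out (adjusted p up to 0.3), and that of Tgfbi without IR_30d replicate 1, 2 or 3 or NT replicate 2 or 3, or with the sublingual-rich libraries left out (adjusted p up to 0.123). In edgeR none of 25 endothelial markers was called (median -0.27); at an unadjusted p under 0.05 there were 4, DESeq2 called 1 and limma-voom none.

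**Figure D5:**
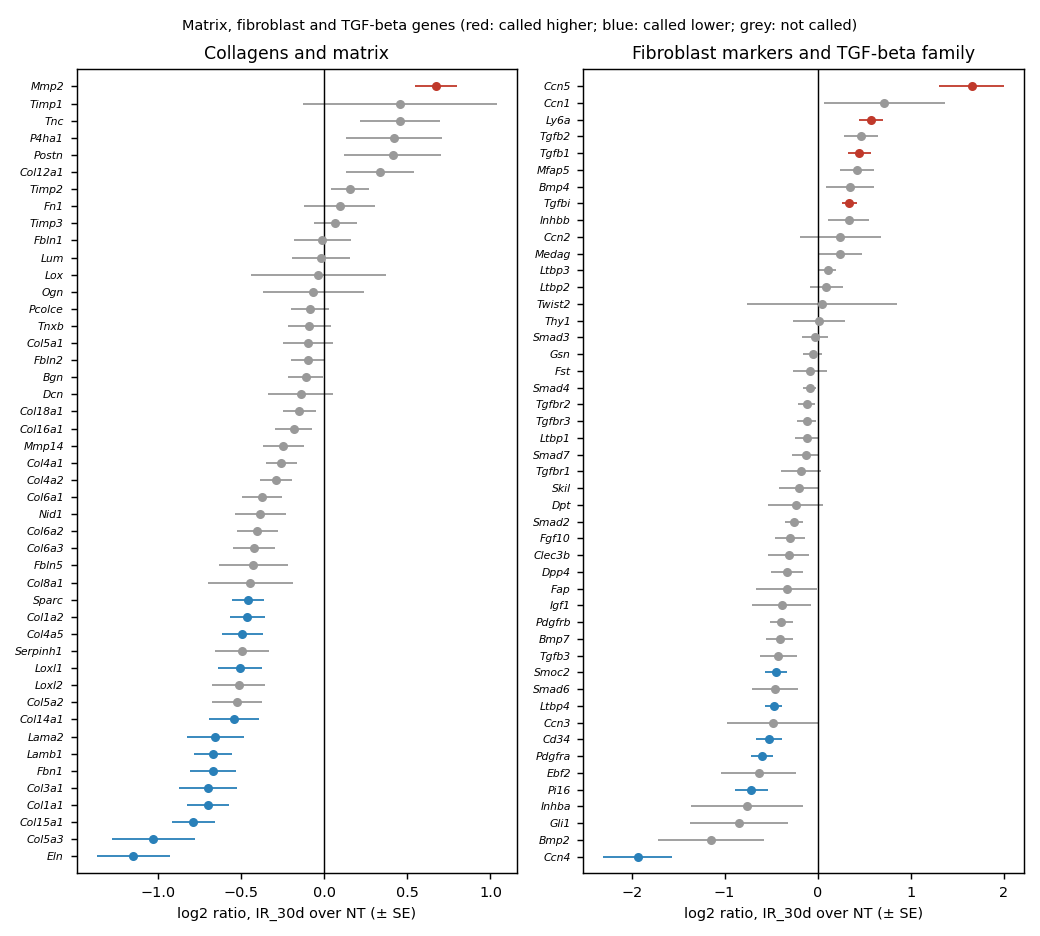
Log2 ratios of IR_30d over NT ± SE for 46 collagens and matrix genes (left) and for fibroblast markers and TGF-beta genes (right), with called rises in red, called falls in blue and genes not called in grey. Mmp2 is the only called rise on the left.

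Stress genes outside the p53 group showed scattered calls. Over all genes tested 3.19% were called higher and 1.29% lower, and the counts for the ATF4 and antioxidant lists are close to these shares. Of 30 genes of the unfolded protein response and secretion machinery 3 rose: Sel1l, of the degradation pathway of the endoplasmic reticulum (0.62 ± 0.09), and the chaperones Hspa5 (0.47 ± 0.12) and Hyou1 (0.45 ± 0.12). The call of Hspa5 was lost without IR_30d replicate 2 or 3 or NT replicate 2 or 3, or with the sublingual-rich libraries left out (adjusted p up to 0.207), and that of Hyou1 without IR_30d replicate 1, 2 or 3 or NT replicate 2 or 3, or with the 2 groups alone (adjusted p up to 0.216). Of 23 genes of the ATF4 and amino acid stress response Sesn2, given above, rose and Nupr1, a stress-induced regulator of transcription, fell. Nupr1 had 90.6, 75.1 and 87.1 CPM in IR_30d, against 154, 128 and 125 CPM in NT (-0.69 ± 0.17, edgeR adjusted p = 0.0355), without overlap of the groups. Its call was lost without any 1 of the 6 libraries (adjusted p up to 0.158) and with no low-count filter. Of 39 antioxidant and detoxifying genes Nfe2l2, which encodes NRF2 (0.37 ± 0.08), and Aldh1a1, an aldehyde dehydrogenase (0.43 ± 0.10), rose, and the glutathione transferase Gsta4 fell. The call of Aldh1a1 was lost without IR_30d replicate 1 or 3 or NT replicate 1, or with the sublingual-rich libraries left out (adjusted p up to 0.0834), and that of Nfe2l2 with the sublingual-rich libraries left out (adjusted p 0.137). Gsta4 had 3.47, 4.22 and 4.18 CPM in IR_30d, against 10, 8.08 and 9.78 CPM in NT (-1.23 ± 0.18). In edgeR none of 32 nuclear genes of oxidative phosphorylation, 32 of fatty acid and cholesterol synthesis, 24 immediate early and heat shock genes or 13 hedgehog genes was called, nor in DESeq2 or limma-voom. At an unadjusted p under 0.05 these lists had 2, 2, 1 and 4 members.

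Among 20 clock genes Nr1d1, a repressor of the circadian clock, fell. It had 19.8, 10.9 and 7.01 CPM in IR_30d, against 26.3, 128 and 126 CPM in NT (-2.90 ± 0.65, edgeR adjusted p = 0.0325). NT replicate 1 was nearest to the irradiated libraries, and the hour of collection is not stated. The call was lost without IR_30d replicate 1, 2 or 3 or NT replicate 2 or 3, or with the 2 groups alone, with the replicate block or with the sublingual-rich libraries left out (adjusted p up to 0.187).

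The remaining large changes lay outside the lists. Spock1, a matrix proteoglycan, had 7.82, 6.91 and 7.06 CPM in IR_30d, against 1.09, 0.723 and 0.24 CPM in NT (3.45 ± 0.58, edgeR adjusted p = 0.0029). Wfdc3, a protein with a WAP domain, had 1.57, 2.27 and 2.41 CPM in IR_30d, against 0.172, 0.157 and 0.37 CPM in NT (3.09 ± 0.57). Both were low in NT, where only Spock1 in replicate 1 exceeded 1 CPM. Syt16, a synaptotagmin, rose by 2.66 ± 0.60, a call lost without any 1 of the 6 libraries (adjusted p up to 0.116) and with the replicate block.

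The largest fall that met the rule for named genes was that of Bcat1, the cytosolic transaminase of branched-chain amino acids, with 0.393, 0.344 and 0.493 CPM in IR_30d, against 5.01, 3.33 and 1.76 CPM in NT (-3.02 ± 0.44, edgeR adjusted p = 0.000631). Crabp1, which binds retinoic acid, had 0.725, 1.52 and 0.779 CPM in IR_30d, against 4.79, 5.04 and 6.29 CPM in IR_4d and 3.92, 2.26 and 3.2 CPM in NT (-1.63 ± 0.29 over NT). All IR_30d libraries lay below all libraries of the other 2 groups. Amer2, a negative regulator of WNT signalling, had 1.21, 1.41 and 1.01 CPM in IR_30d, against 5.5, 5.06 and 2.59 CPM in NT (-1.85 ± 0.30). Prrg3, a membrane protein with a Gla domain, had 4.83, 6.02 and 5.82 CPM in IR_30d, against 8.78, 8.27 and 9.3 CPM in IR_4d and 14.1, 15.2 and 12.7 CPM in NT (-1.33 ± 0.13 over NT). Of 17 nerve and Schwann cell markers Tubb2b, a neuronal tubulin (-1.46 ± 0.27), and Pmp22, of peripheral myelin (-0.51 ± 0.12), fell, while Ngfr, the p75 receptor of neurotrophins, had 387, 357 and 389 CPM in IR_30d, against 138, 255 and 241 CPM in NT (0.84 ± 0.20). The call of Ngfr was lost without IR_30d replicate 1, 2 or 3, or with the 2 groups alone (adjusted p up to 0.162), and that of Pmp22 without IR_30d replicate 2 or 3 or NT replicate 2 or 3 (adjusted p up to 0.0728).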

How the data were processed

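The authors deposited whole-number read counts per gene symbol for 15 stranded total-RNA libraries. The submitters' processing notes name TopHat, HTSeq, DESeq2 and the build GRCm39; versions and the strand setting are not given in the sources used here. Tests used the quasi-likelihood method of edgeR 4.0.16 under R 4.3.3 (TMM factors, filterByExpr with a minimum count of 10 and a minimum total of 15, robust F test, 1 model of all 15 libraries, 10 residual degrees of freedom) and adjusted by Benjamini-Hochberg over 16042 of 21013 symbols. The other 9 libraries, those of IR_4d and of the IR + iEVs glands of both days, entered to share the estimate of spread. An SE is the absolute log2 ratio over the square root of F. On simulated data for this comparison 77 of 100 genes changed 2-fold and 35 of 100 changed 1.5-fold were recovered. There were 4 false calls among the genes left unchanged. The changed genes were drawn from those with a mean of at least 1 CPM, and recovery at lower levels was not tested. The depth of each library and 3 libraries a group limit the precision.

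The 46 gene lists, the comparisons and the alternatives were chosen with earlier results of these data known. Named genes were drawn from a rule: the 12 largest called rises and falls without overlap and with at least 2 CPM, the 8 lowest p, the 8 largest CPM differences each way, and the 4 members with the lowest p in every list. Fas, Bcl2l1, Tgfb1 and Smoc2 were named after their values were seen, as were the marker genes given by library. Alternatives were DESeq2 1.42.0, limma-voom 3.58.1, other scaling and filters, a fit of the 2 groups alone, a replicate block and libraries left out. The table without the tubule products was added after the data were seen. Some results are not reported here.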

Additional observations from a re-analysis of the deposited data

Results flagged for a closer look

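Of the 112 genes given with a ratio above, 75 differed between day 30 and day 4. The test was that of IR_30d against IR_4d in edgeR (adjusted p under 0.05), in which the NT libraries cancel. Over all genes tested 1092 of 16042 (6.81%) were called. Of the 112 genes, 109 had been called in IR_30d against NT, which uses the same IR_30d libraries. Some were named for their difference between the days. The high share among them thus partly follows from how they were chosen. Values are log2 ratios of IR_30d over IR_4d. Lower at day 30 among the p53 targets were Eda2r (-0.67), Ephx1 (-0.53), Dglucy (-0.52), Aen (-0.91) and Bax (-0.41). Exoc4, which is not on the p53 list, was lower too (-0.67), and the survival gene Bcl2l1 was higher (0.32).

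Interferon genes were higher at day 30 than at day 4: Oas3 (3.19), Oas2 (2.42), Ifit3 (2.49), Bst2 (1.36), Irf7 (2.27), Jak1 (0.32), Zbp1 (2.40), Gbp3 (1.55) and Gbp2 (1.45). So were the antigen presentation genes H2-K1 (0.85), Tap1 (0.88), B2m (0.78), H2-D1 (0.69), H2-Ab1 (1.59), H2-Eb1 (1.55), Cd74 (1.48) and Ctss (1.57). Complement and macrophage genes did likewise, with Cfb at 1.51, C1qa at 1.19, C1qb at 1.20, C1qc at 1.07, Siglec1 at 1.43, Mpeg1 at 1.45, Cd14 at 0.87, Retnla at 3.98 and Ms4a4a at 1.65. The chemokines were Ccl8 (2.08), Ccl9 (1.81), Cxcl16 (0.51) and Ccl6 (2.09), whereas Mmp9 was lower (-2.73). Nfkb2 (1.12), Lcn2 (2.59), Hsd11b1 (0.99) and Ddit4 (0.56) were higher.

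Tubule products were higher at day 30 than at day 4 as well: Egf (1.03), Klk1b26 (1.23), Crisp3 (0.99), Klk1b9 (1.46), Klk1b16 (1.77), Klk1b22 (1.13), Klk1b8 (2.18), Klk1b11 (0.90), Klk1b21 (1.42), Fgf1 (0.58) and Crisp1 (2.69), with Klk1 lower (-1.33). Among secretion and duct genes Aqp5 (-0.69), Ano1 (-0.41), Creb3l1 (-0.57) and Fxyd2 (-1.10) were lower and Kcnj16 (0.91), Krt19 (0.74) and Ngfr (1.07) higher.

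In the matrix, fibroblast and TGF-beta genes Lamb1 (-0.41), Mmp2 (-0.45), Pi16 (-0.69) and Ccn4 (-1.54) were lower at day 30 than at day 4, and Tgfbi (0.53) and Tgfb1 (0.51) were higher. The remaining genes were Sel1l (0.55), Spock1 (3.49) and Syt16 (2.30), which were higher, and Nr1d1 (-2.68), Amer2 (-1.34), Crabp1 (-2.41), Prrg3 (-0.66) and Nfe2l2 (-0.32), which were lower.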

How the results depend on the processing

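The 718 calls between IR_30d and NT became 1093 with DESeq2, ranged from 355 to 606 without each of the 6 libraries in turn, and otherwise lay between 491 (sublingual-rich libraries left out) and 793 (the 2 groups alone). The 1092 calls between IR_30d and IR_4d became 1461 with DESeq2, 2280 with the 2 groups alone, 374 with the sublingual-rich libraries left out, and 536 to 718 without each of the 6 libraries in turn. Fewer libraries leave fewer degrees of freedom, and the cause of the other shifts was not tested. With the 2 groups alone 60.4% of the calls between the days were higher in IR_30d, against 70.7% in the model of all libraries. Replicate numbers did not pair the libraries (correlations of deviations for IR_30d with NT of -0.0917, -0.0547 and 0.0354); with the replicate block 635 genes were called between IR_30d and NT and 956 between IR_30d and IR_4d. Of 109 called genes named with a ratio, 35 lost their call under at least 1 alternative that tested them and none changed sign. The other 74 kept it wherever they were tested: 51 were tested under every alternative, and 23 were absent from at least 1. Of the 109, 20 were absent among genes of at least 5 CPM and 12 from the table without the tubule products. Among the alternatives that tested them, Bcl2l1, Ccn5 and Nfe2l2 lost theirs only with the sublingual-rich libraries left out, and Ccl8 there and with limma-voom. Genes of low level, such as Ccl8 and Psrc1, rest on few reads.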
